A study of Mus musculus with 9 samples.

Results

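The comparison described here sets kidneys of untreated diabetic db/db mice against kidneys of nondiabetic db/m mice, across all genes of a whole-transcript mouse array (MoGene-2_0-st). Its members are the 22180 genes that a probe set with a single gene symbol measured, with the brightest probe set taken where a gene had several, and its samples are 6 of the 9 arrays of the series, 3 per group. The db/db mice are homozygous for a leptin receptor mutation on the C57BL/KsJ background. The remaining group, used here for its spread and for values given beside the comparison, was db/db mice given irbesartan, an angiotensin receptor blocker. The db/m controls carry 1 mutant db allele with the misty coat marker on the other chromosome, so they are heterozygous and not wild type. All mice were male, the labels give both untreated groups vehicle for 12 weeks (saline by gavage in the methods, which name it for db/db mice only), and 1 array was hybridized per mouse. The labels name whole kidney and a start at 10 weeks of age, whereas the methods name renal cortex, a younger age and another array type, and the hour of collection was not given in the sources used here.

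Mice without a working leptin receptor overeat, become obese and insulin resistant, and develop high blood glucose with albumin in the urine. Most of the RNA of a kidney comes from its proximal tubules, whose cells reabsorb filtered sugars, amino acids and phosphate and secrete organic anions, steroids and drugs through carriers of the SLC and ABC families. In mice many of these carriers and the enzymes beside them are set by sex hormones and growth hormone, so that male and female kidneys differ in them.

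The 11 measured genes used to check the tissue averaged 10.01, 10.05 and 10.04 in db/db and 9.85, 9.91 and 9.88 in db/m kidneys, and 0 were called. Among them are Lrp2 (megalin, the endocytic receptor of the proximal tubule) and Umod (uromodulin of the thick ascending limb). Their median log2 fold change was 0.24, with 8 positive and 4 above db/m without overlap, and 1 was called without db/db replicate 2. Over all genes 16.8% did not overlap between the groups, in either direction. Lrp2 averaged 11.15 ± 0.07 in db/db and 11.16 ± 0.16 in db/m kidneys (SD, n = 3 each). Levels are RMA log2 intensities throughout, and the arrays correlated at 0.984 to 0.994 over all probe sets. In some genes 3 arrays stood apart. Replicate 3 of db/db was high in neutrophil genes, replicate 3 of db/m was high in the clock genes Arntl and Npas2, and replicate 2 of db/m was high in adipocyte genes (mean of 8 genes 5.06, against 4.05 and 4.13 in the other db/m mice, with 5.64 in 1 treated mouse).

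The diabetic kidneys differed from the nondiabetic ones in 510 genes, or 2.3% of those tested by limma. A call required a log2 fold change beyond 0.5 in either direction and, after Benjamini-Hochberg adjustment over all genes, a p under 0.25. Such a bound accepts an expected share of false calls of up to 0.25. Of these, 291 (1.31% of all genes) were higher and 219 (0.987%) were lower in db/db kidneys, and 486 did not overlap between the groups, against 16.8% of all genes without overlap. The median log2 fold change over all genes was 0.005. The lower genes moved further. A log2 fold change beyond 1 was reached by 53 lower and 20 higher genes, and one beyond 2 by 11 lower and 1 higher gene. At an adjusted p under 0.05, 227 genes were called, with 111 higher and 116 lower. Leaving out each array in turn left 244 genes called in all 9 fits, 123 higher and 121 lower. The analysis of variance that the methods name, without moderated variances, called only 5 genes over the 6 arrays, namely Slco1a1, Cd36, Atp11a and Proc as lower and Spp2 as higher.

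**Figure D1:**
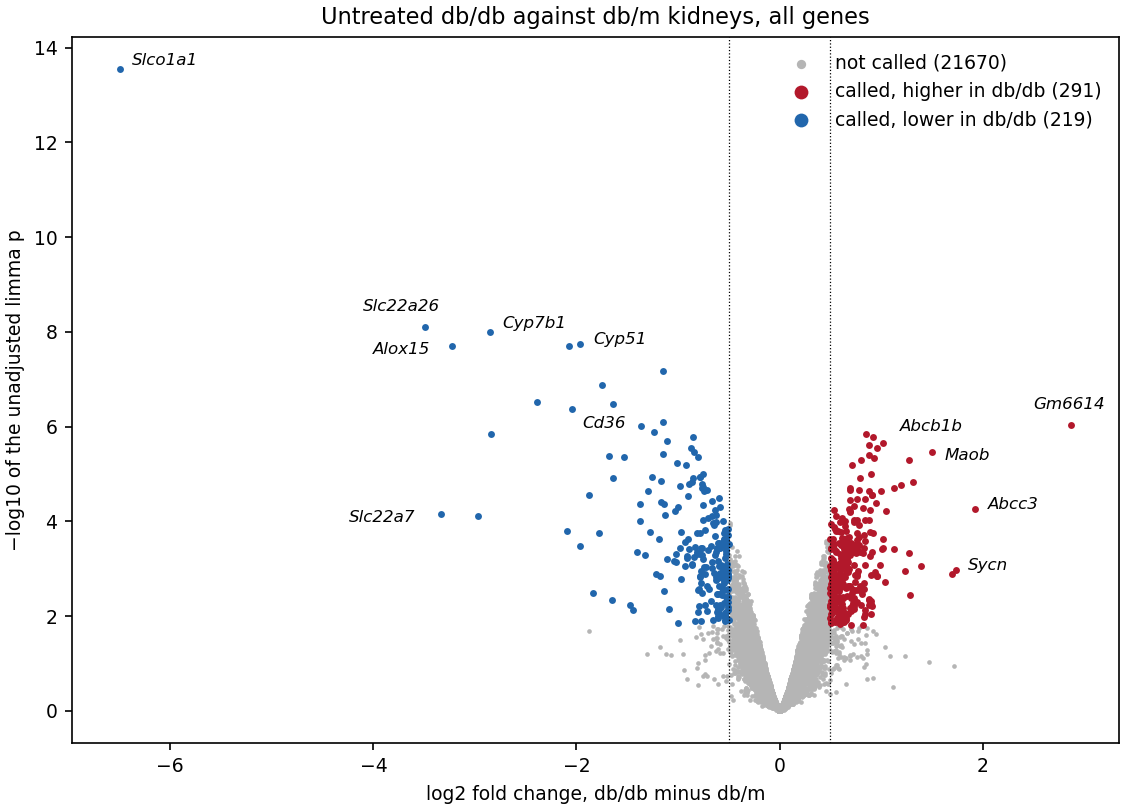
Each point is 1 of 22180 genes, with the log2 fold change of db/db minus db/m kidneys on the x axis and −log10 of the unadjusted limma p on the y axis, and dotted lines at the fold change bound. Slco1a1 lies far from all other genes at -6.50, and the blue points (lower in db/db) reach further from 0 than the red ones (higher in db/db).

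Transporters of organic anions gave the largest falls. Slco1a1, which carries steroid sulfates and other organic anions, was at 1.81, 2.05 and 1.71 in db/db and at 1.82, 2.0 and 1.79 in irbesartan-treated db/db kidneys, against 8.23, 8.62 and 8.21 in db/m kidneys. The log2 fold change was -6.50 ± 0.13 (SE, adjusted p = 6.2e-10 by limma). Its level in db/db mice lay below 3.39, the median of all probe set means, so the size of the fold rests on values at the low end of the array.

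The Slc22a family holds the organic anion and cation carriers. This and the other gene families below were grouped by symbol after the values were seen. Of its 23 measured members 5 were lower and 0 were higher, and the family median was -0.19. Slc22a7, an organic anion and cyclic nucleotide carrier, had 3.74, 3.15 and 5.67 in db/db, against 8.14, 7.43 and 7.0 in db/m mice (-3.34 ± 0.54, SE, adjusted p = 0.017 by limma), and all db/db mice lay below all db/m mice although replicate 3 was highest. Slc22a26 had 4.60, 4.32 and 3.99 in db/db against 8.38, 7.39 and 7.61 in db/m kidneys, a log2 fold change of -3.49. The anion carriers Slc22a19 (-1.77), Slc22a28 (-1.17) and Slc22a30 (-1.03) were lower too, and all of these except Slc22a7 lie on chromosome 19. These copies resemble each other, and how far their probe sets cross-hybridize was not tested. The main basolateral anion carriers of the proximal tubule did not pass the test, with Slc22a6 (OAT1) at -0.28 and Slc22a8 (OAT3) at 0.12, and the cation carrier Slc22a2 (OCT2) reached -0.49 with an adjusted p of 0.021 by limma and did not exceed the fold change bound.

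Several efflux pumps were higher. The gene lists were chosen with earlier results of these data known. On the list of organic ion transporters and efflux pumps 3 of 21 genes were higher, the pumps Abcb1a, Abcb1b and Abcc4. The 1 lower gene was the urate and anion carrier Slc17a3 at -0.58, not called without db/m replicate 1 or without db/db replicate 3. The list median was -0.12. Slco1a1, the called Slc22a genes, Abcc3 and Slco4a1 are not on this list, so its counts and median leave them out. In the Abcb and Abcc families, 4 of 19 members were higher and 1, the potassium channel subunit Abcc9, was lower at -0.55 (not called without db/m replicate 1 or without db/db replicate 1). Abcc3, a basolateral exporter of glucuronides and bile salts, had 6.28, 5.74 and 7.01 in db/db kidneys and 3.81, 4.63 and 4.81 in db/m kidneys (1.93 ± 0.30, SE, adjusted p = 0.015 by limma). Abcb1b, a mouse copy of the multidrug pump P-glycoprotein, had 6.91, 6.78 and 6.59 in db/db, against 5.20, 5.73 and 5.54 in db/m mice (1.27 ± 0.15, SE), and its paralog Abcb1a was higher by 0.88. Neither pump overlapped between the groups, but Abcb1b was named from called genes without overlap, so for it this follows from that choice. Abcc4, which exports organic anions and cyclic nucleotides at the apical membrane, was higher by 0.92, and Slco4a1, a thyroid hormone carrier, by 0.91.

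The gene with the highest positive fold change, the predicted gene Gm6614, had 5.77, 5.61 and 5.71 in db/db and 5.63, 5.39 and 5.12 in treated db/db kidneys, against 1.98, 3.01 and 3.49 in db/m kidneys (2.87 ± 0.29, SE, adjusted p = 0.0015 by limma). Its db/m mean of 2.83 lay below 3.39, the median of all probe set means, so the size of this rise also rests on low values. In the reference annotation no other measured gene stands between Gm6614 and Slco1a1 on chromosome 6, so the largest rise and the largest fall belong to adjacent genes. Whether the probe sets of these neighbours share signal was not tested. The other measured Slco genes of that chromosome ranged from Slco1a4 at -0.48 to Slco1a6 at 0.09, and none was called.

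**Figure D2:**
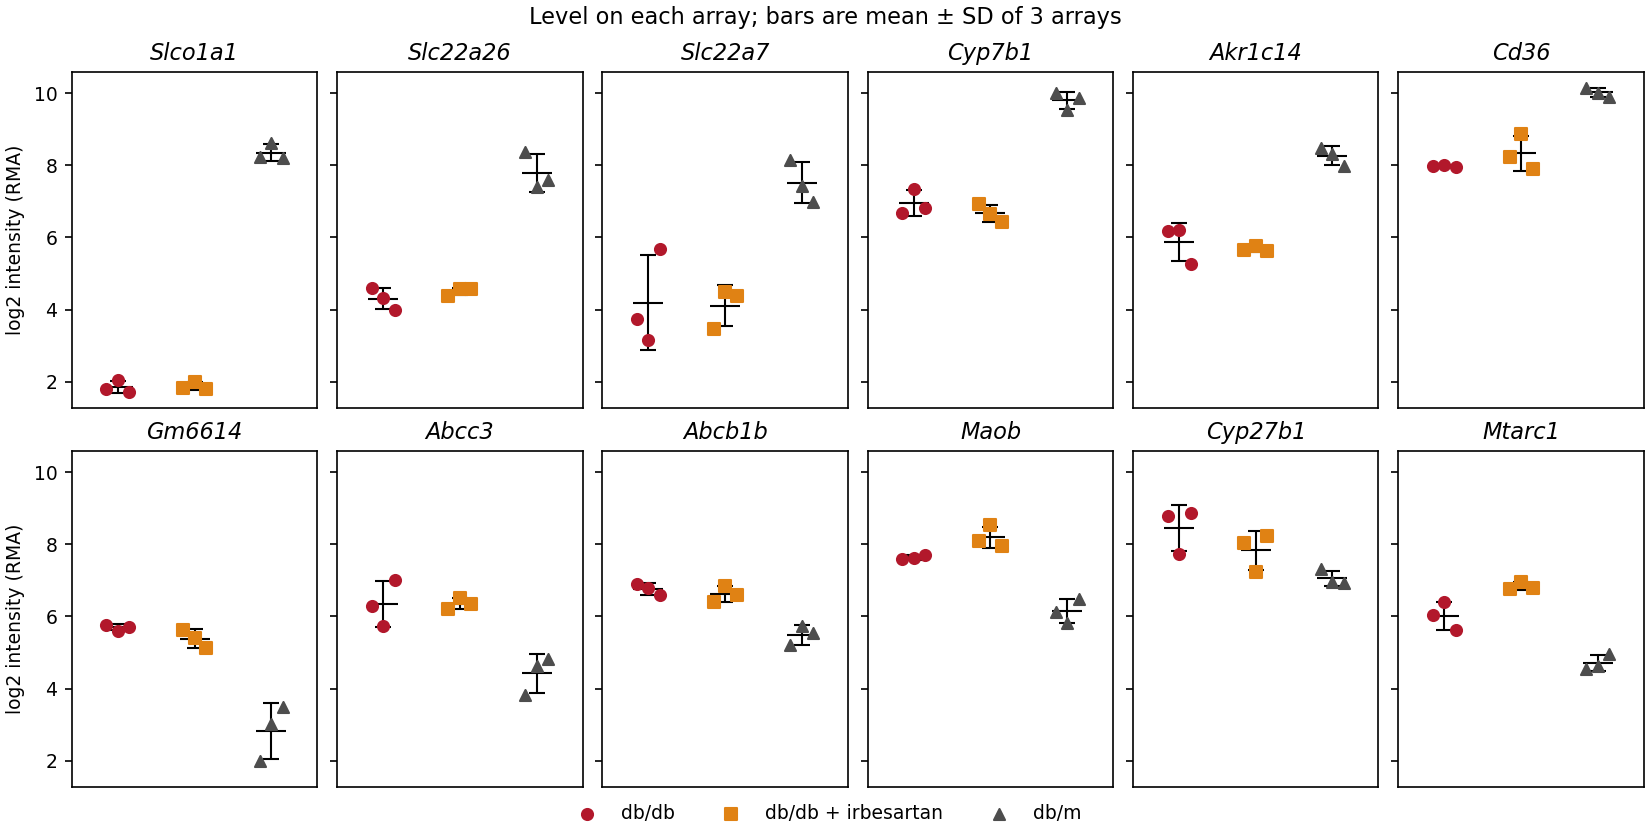
Levels (log2 intensity, y axis) of 12 genes in untreated db/db (circles), irbesartan-treated db/db (squares) and db/m kidneys (triangles), 3 mice each, with mean and SD. In the upper row db/db mice lie below db/m mice and in the lower row above them. All 12 genes were named from called genes without overlap of db/db and db/m, so the separation follows from that choice.

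**Figure D3:**
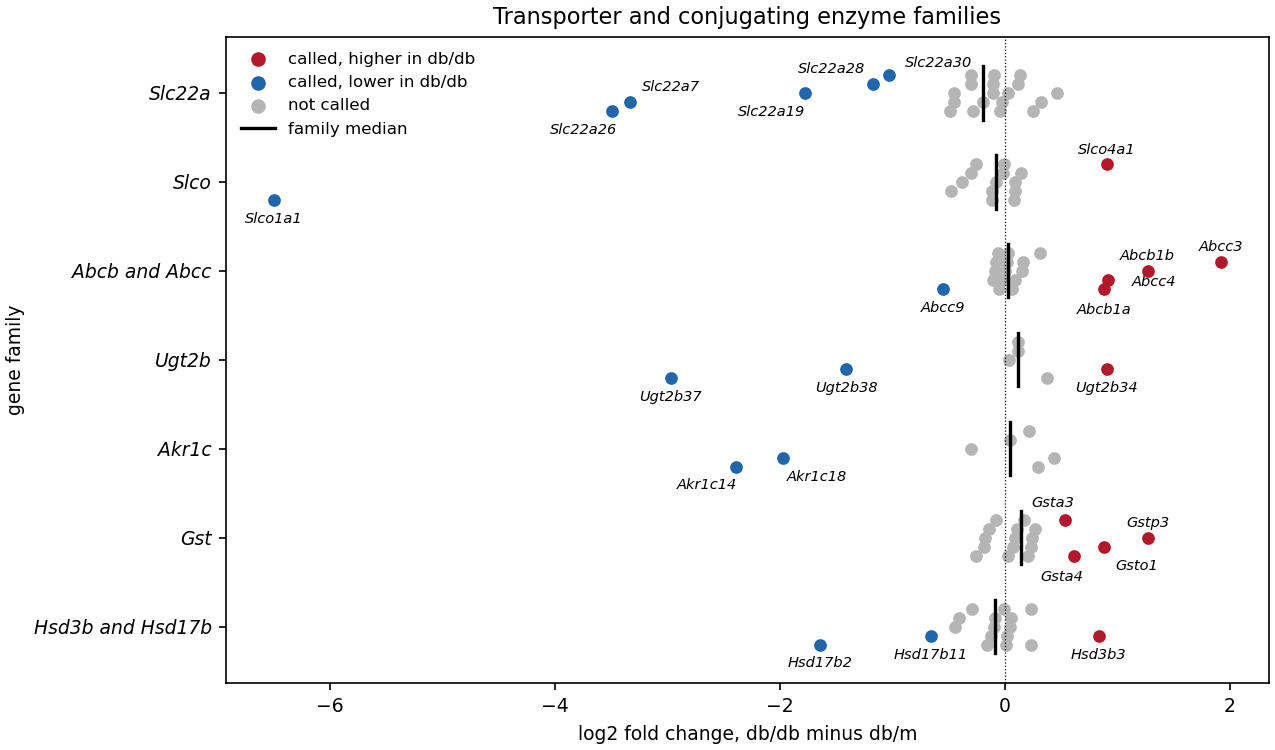
Log2 fold changes (db/db minus db/m, x axis) of all measured members of 7 transporter and enzyme families, 1 point per gene, with called genes named and a bar at the family median. The Slco, Abcb and Abcc, Ugt2b and Hsd families hold calls on both sides of 0, and the medians of all 7 families stay between -0.19 and 0.14.

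Some genes that are known to be higher in male mouse kidneys under androgens were lower in the db/db males. Of 16 measured genes on this list, 6 were lower and 0 were higher, the median was -0.43, and 12 lay below db/m without overlap (16.8% of all genes do not overlap). Cyp7b1, an oxysterol and steroid hydroxylase, had 6.69, 7.35 and 6.81 in db/db, against 10.01, 9.53 and 9.87 in db/m kidneys (-2.85 ± 0.19, SE, adjusted p = 7.4e-05 by limma). Kap, the kidney androgen-regulated protein that is the best-known androgen target of this organ, had 10.98, 10.95 and 10.74 in db/db, against 11.70, 11.71 and 11.87 in db/m kidneys (-0.87 ± 0.12, SE). Slc7a13, an aspartate and glutamate carrier, was lower by a log2 fold change of -1.37, Cyp2j13, an epoxygenase, by -1.17, and Slc22a30 and Slco1a1 complete the 6. Of those not called, Cyp4a12b was the single member with a positive value (0.57), whereas its paralog Cyp4a12a lay at -0.66. Whether the probe sets of these paralogs share signal was not tested. Odc1, Cyp2d9 and Cyp2e1 lay at -0.45, -0.42 and -0.41. Leaving out single arrays gave between 6 and 8 lower genes.

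Because several of these genes moved together, the bases before their start sites were read from the RefSeq promoter table (GRCm38.p6), which held 12 of the 16. Each window spans 250 bases before the start and was searched on both strands for the core promoter motif TATAAA, for AGAACA, a half-site of steroid hormone receptors, and for TTCNNNGAA, bound by STAT factors. TATAAA occurred in 4 of the 12 against 12.97% of 27025 promoters, AGAACA in 1 of 12 against 16.2%, and TTCNNNGAA in 1 of 12 against 7.18%, both in Cyp4b1. The 4 called genes with an entry are shown, with matches to these motifs in capitals on either strand and the start site just after the last base.
Slco1a1 (chr6:141946963-141947212, minus strand): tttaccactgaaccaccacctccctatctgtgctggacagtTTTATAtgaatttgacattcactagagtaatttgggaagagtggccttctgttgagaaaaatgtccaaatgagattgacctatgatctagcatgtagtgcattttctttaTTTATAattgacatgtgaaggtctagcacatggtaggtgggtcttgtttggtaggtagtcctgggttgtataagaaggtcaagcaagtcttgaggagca
Kap (chr6:133853668-133853917, minus strand): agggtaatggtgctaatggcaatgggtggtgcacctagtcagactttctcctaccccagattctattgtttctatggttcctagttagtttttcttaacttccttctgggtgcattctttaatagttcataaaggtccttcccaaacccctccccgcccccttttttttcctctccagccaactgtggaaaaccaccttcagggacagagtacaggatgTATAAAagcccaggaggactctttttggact
Cyp2j13 (chr4:96077541-96077790, minus strand): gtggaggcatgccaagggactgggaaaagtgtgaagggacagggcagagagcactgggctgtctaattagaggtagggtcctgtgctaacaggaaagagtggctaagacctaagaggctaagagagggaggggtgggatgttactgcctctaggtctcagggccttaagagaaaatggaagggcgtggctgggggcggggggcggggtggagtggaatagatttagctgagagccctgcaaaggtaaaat
Slc22a30 (chr19:8405106-8405355, minus strand): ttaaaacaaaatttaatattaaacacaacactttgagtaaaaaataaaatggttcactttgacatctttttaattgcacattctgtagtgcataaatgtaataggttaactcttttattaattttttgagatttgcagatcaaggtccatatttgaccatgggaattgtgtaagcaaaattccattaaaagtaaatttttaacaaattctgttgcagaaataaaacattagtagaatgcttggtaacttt
Slco1a1 holds 2 TATAAA matches, both read on the opposite strand, and Kap holds 1 close to its start, while Cyp2j13 and Slc22a30 hold none of the 3 motifs in this window. AGAACA and TTCNNNGAA are in none of the 4 windows, and a match or its absence is a description of these letters only.

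Genes that are higher in female mouse kidneys were split. Of 7 measured, 3 were higher, namely Abcc3, the fatty acid hydroxylase Cyp4a14 (0.89 ± 0.14, SE) and the amino acid carrier Slc7a12 (0.73), and 3 were lower, namely the anion carriers Slc22a7 and Slc22a19 and the steroid hydroxylase Cyp2a4 (-0.81). Slc7a12 had 10.12, 9.78 and 10.03 in db/db against 9.29, 8.95 and 9.50 in db/m kidneys.

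Enzymes that act on steroids, a group formed after the values were seen, held calls in both directions. Akr1c14, a hydroxysteroid dehydrogenase, had 6.17, 6.20 and 5.27 in db/db, against 8.49, 8.33 and 7.99 in db/m mice (-2.39 ± 0.22, SE, adjusted p = 0.00074 by limma). Akr1c18, which inactivates progesterone, was lower by a log2 fold change of -1.97, with db/m mice spread over 7.39, 5.57 and 5.54. Hsd17b2, which oxidizes estradiol and testosterone, had 6.24, 6.04 and 6.22 in db/db against 7.96, 7.58 and 7.90 in db/m mice (-1.64 ± 0.15, SE). Hsd17b11 was lower at -0.66. Hsd3b3 (0.84) and Cyp17a1, the androgen-forming hydroxylase and lyase, were higher, the last at 4.09, 3.81 and 4.40 in db/db and 2.86, 3.13 and 3.16 in db/m kidneys. All db/m values of Cyp17a1 lay below 3.39, the median of all probe set means, so its fold change rests on low values. Esr1, the estrogen receptor alpha, was lower at -0.89 ± 0.12 (SE). None of these genes was on a list, and all were named for their values. Of 17 measured Hsd3b and Hsd17b genes 1 was higher, 2 were lower and 14 were not called, with a median of -0.08. The other Akr1c members ranged from -0.30 for Akr1c21 to 0.44 for Akr1c20 without a call.

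Conjugating enzymes changed in both directions. Of 26 glucuronosyl, glutathione and sulfo transferases 4 were higher and 4 were lower, with a median of 0.19. Ugt2b37 and Ugt2b38, which attach glucuronic acid to steroids and drugs, fell by 2.97 and 1.41 on the log2 scale. Ugt2b37 had 8.14, 7.98 and 5.74 in db/db, against 10.19, 10.38 and 10.20 in db/m kidneys, so replicate 3 of db/db was lowest in it by far. Ugt2b34, also on chromosome 5, had 7.99, 7.85 and 7.61 in db/db and 6.86, 6.97 and 6.91 in db/m mice (0.91 ± 0.13, SE). Ugt8a, which makes galactosylceramide, was lower at -1.02. Of 18 glutathione transferases in the Gst families, Gstp3 (1.27), Gsto1 (0.88), Gsta4 (0.62) and Gsta3 (0.54) were higher and 0 were lower, Gsta3 not being called without db/m replicate 1 or without db/db replicate 1. Near-identical copies in these families could share signal, which was not tested.

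Among oxidizing enzymes, Maob, the mitochondrial monoamine oxidase B, had 7.59, 7.62 and 7.71 in db/db and 8.11, 8.53 and 7.95 in treated db/db mice, against 6.13, 5.81 and 6.48 in db/m kidneys (1.50 ± 0.18, SE, adjusted p = 0.003 by limma). Maob was named from called genes without overlap of db/db and db/m mice, so its separation follows from that choice. Mtarc1, a mitochondrial amidoxime reductase, was higher by 1.31 ± 0.18 (SE), and Bbox1, the last enzyme of carnitine synthesis, by 1.13. Of 29 listed cytochrome P450 genes 2 were higher, Cyp2d26 at 0.78 and Cyp2d22 at 0.66 (the latter not called without db/m replicate 1). Cyp51 was the 1 lower gene, and 4 were higher when db/m replicate 2 was left out. Called P450 genes not on this list include Cyp7b1, Cyp2j13 and Cyp2a4 as lower and Cyp27b1, Cyp17a1, Cyp4a14 and Cyp2c68 as higher. The count of this list therefore does not cover all P450 calls. Fmo5, a flavin monooxygenase, was lower at -1.36, and Alox15, the 12/15-lipoxygenase, had 4.53, 4.86 and 4.69 in db/db and 4.78, 4.99 and 5.0 in treated db/db mice, against 7.25, 8.21 and 8.30 in db/m kidneys (-3.23 ± 0.23, SE). Alox15 was likewise named from called genes without overlap.

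Lipid genes showed single large changes without a shift of their lists. Cd36, the scavenger receptor that takes up long-chain fatty acids, had 7.97, 8.02 and 7.95 in db/db, against 10.16, 9.998 and 9.91 in db/m kidneys (-2.04 ± 0.19, SE, adjusted p = 0.00086 by limma). Cyp51, the lanosterol demethylase of cholesterol synthesis, had 5.70, 5.21 and 5.52 in db/db and 7.58, 7.32 and 7.41 in db/m mice (-1.96 ± 0.14, SE). Both genes were tightly grouped within each genotype. Of 29 lipogenesis and lipid droplet genes 2 were lower (Cd36 and the malic enzyme Me1 at -0.85) and 2 were higher (the elongase Elovl6 at 0.64, not called without db/m replicate 3, and the droplet coat gene Plin4 at 0.91, not called without db/m replicate 1, db/m replicate 3 or db/db replicate 3). Of 21 cholesterol genes 2 were higher, the sterol exporter Abca1 (0.77) and the carrier Stard4 (0.60, not called without db/m replicate 3), with a median of -0.08. The apolipoprotein genes Apoc1 and Apoe were higher, with Apoc1 at 6.60, 7.56 and 6.22 in db/db against 5.34, 5.67 and 5.51 in db/m mice (1.28 ± 0.35, SE, not called without db/m replicate 1 or without db/db replicate 2) and Apoe, picked for its values, at 0.78. Of 36 PPAR alpha targets and fatty acid oxidation genes only Cyp4a14 was called, and the list median was -0.03. Its members include Cpt1a, the gate of fatty acids into mitochondria, at 10.77, 10.89 and 10.84 in db/db and 10.84, 10.93 and 10.92 in db/m kidneys, where the groups overlapped.

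The calls among sugar transporters lay close to the fold change bound. Of 12 sugar transporters 2 were higher, Slc5a1 (SGLT1, the low-capacity sodium glucose carrier of the late proximal tubule) by 0.52 and Slc2a4 (GLUT4, the insulin-responsive carrier) by 0.50, with a list median of 0.26. Slc5a1 had 8.51, 8.49 and 8.27 in db/db, against 8.11, 7.77 and 7.82 in db/m mice, and Slc2a4 6.81, 6.89 and 6.82 in db/db against 6.25, 6.24 and 6.53 in db/m mice. The count ranged from 0 to 2 over the fits with an array left out, at 0 without db/db replicate 2. Slc5a2 (SGLT2, the high-capacity carrier of the early proximal tubule) had 10.95, 10.96 and 10.83 in db/db and 10.62, 10.75 and 10.59 in db/m kidneys, a log2 fold change of 0.26 that was not called. Of 16 glycolysis genes 3 were higher, Pklr (liver-type pyruvate kinase, 0.69 ± 0.11, SE), Pfkp (0.54) and Pkm (0.50), and the count dropped to 1 when db/m replicate 2 or db/db replicate 3 was left out. Pdk1, a kinase that shuts pyruvate dehydrogenase, had 6.91, 6.77 and 7.30 in db/db, against 6.04, 6.16 and 5.78 in db/m mice (0.998 ± 0.143, SE), a gene picked for its values. A second Pdk1 probe set gave 0.29 and was not called. Gluconeogenesis and fructose genes had 0 of 12 called and a median of 0.15, with Pck1 at 0.17 and G6pc at 0.13. Of 38 respiratory chain subunits 0 were called, and their median was 0.09, and of 10 genes for ketone bodies and monocarboxylates Bdh1, which interconverts the ketone bodies, was lower at -0.71.

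The vitamin D hydroxylase Cyp27b1 and some genes of the distal nephron were higher. Cyp27b1, which makes active vitamin D in the proximal tubule, had 8.77, 7.72 and 8.88 in db/db, against 7.30, 6.97 and 6.92 in db/m kidneys (1.39 ± 0.31, SE, adjusted p = 0.064 by limma), and was the 1 called gene among 12 for phosphate and vitamin D. The 24-hydroxylase Cyp24a1, which breaks active vitamin D down, overlapped between the groups at 9.44, 10.19 and 8.69 in db/db and 8.81, 9.52 and 10.21 in db/m mice. On the list for the loop of Henle and distal convoluted tubule all 20 genes had positive log2 fold changes, with a median of 0.31, and 4 were called. Of these, 3 carry calcium in the distal tubule, the exchanger Slc8a1 (8.07, 8.03 and 7.91 in db/db against 6.95, 7.31 and 7.10 in db/m), the buffer Calb1 (0.68) and the entry channel Trpv5 (0.55, not called without db/m replicate 1 or without db/db replicate 1). The calcium channel Trpv6 (0.07) and the calcium-binding S100g (0.27), both on the phosphate and vitamin D list, were not called. The remaining call on the distal list was the prostaglandin E2 receptor Ptger3 (0.82 ± 0.17, SE). Of 16 principal cell genes Scnn1a (a subunit of the epithelial sodium channel, 0.54) and the urea carrier Slc14a1 (0.79) were higher, and 0 were called without db/db replicate 3. Of 14 intercalated cell genes Aqp6 (0.60) was higher. In whole-tissue RNA a larger share of distal cells and more RNA per cell cannot be told apart.

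In the renin-angiotensin system, the target pathway of irbesartan, 2 of 11 measured genes were lower. Ace, the angiotensin-converting enzyme of the brush border and endothelium, had 8.87, 8.83 and 8.86 in db/db, against 9.92, 9.53 and 10.04 in db/m kidneys (-0.98 ± 0.14, SE, adjusted p = 0.0077 by limma). The db/db values lay close together, all below those of db/m mice. Mas1, the angiotensin-(1-7) receptor, had 2.0, 2.07 and 1.78 in db/db and 2.37, 2.84 and 2.55 in db/m kidneys, below the median of all probe set means. Agtr1a, the type 1 receptor, lay at 9.58, 9.54 and 9.35 in db/db and 9.64, 9.62 and 9.48 in db/m kidneys, and was not called.

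Lists of glomerular and interstitial disease are read beside the 2.3% of all genes called, a share at which a short list often holds 0 calls. Of the tubule injury list 11.1% were called, of the pericyte and smooth muscle list 7.1% and of the endothelial list 5%. Of 19 podocyte genes 0 were called, and 18 had a positive log2 fold change with a median of 0.18. Nphs1 (nephrin) had a log2 fold change of 0.24 and Podxl (podocalyxin) of 0.21. Of 26 interstitial matrix and fibrosis genes 0 were called, with Col1a1 at 0.06 ± 0.28 and Col1a2 at 0.13 ± 0.11 (SE), and of 25 basement membrane and integrin genes 0 were called, with Col4a1 at -0.005. Matrix genes outside these lists, picked after their values were seen, were called in both directions. Among them Col12a1 and Aspn were higher and Fmod, Col6a5, Lamc3 and Pxdn lower, none of these in all 9 fits with an array left out. Of 18 tubule injury genes the calcium-binding S100a6 (0.69) and the keratin Krt19 (0.51, not called without db/m replicate 1) were higher. Havcr1 (KIM-1) was not called at -0.17, and Lcn2 (NGAL) had 5.44, 5.13 and 7.87 in db/db against 5.13, 4.82 and 5.24 in db/m mice, so that db/db replicate 3 alone was high. Sprr1a, a small proline-rich protein of stressed epithelia, had 5.74, 5.61 and 5.89 in db/db and 3.86, 4.52 and 3.76 in db/m kidneys (1.70 ± 0.40, SE). Of 20 endothelial genes Esm1, an endothelial proteoglycan, was lower at -1.02, and of 14 pericyte and smooth muscle genes Rgs5 was higher by 0.64.

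T cell genes were among the lower calls. All 16 measured T, NK and B cell genes had negative log2 fold changes, with a median of -0.30, and 6 were lower and 0 higher. The list averaged 3.31, 3.41 and 3.26 in db/db against 3.74, 3.85 and 3.67 in db/m mice, without overlap. Cd3e, a chain of the T cell receptor complex, had 4.16, 4.32 and 4.11 in db/db, against 5.30, 4.87 and 4.85 in db/m kidneys (-0.81 ± 0.17, SE, adjusted p = 0.047 by limma). Cd3g (-0.79), the CD8 chains Cd8b1 (-0.80) and Cd8a (-0.77), the cytotoxic granule gene Nkg7 (-0.75) and the immunoglobulin chain gene Jchain (-0.84) complete the 6. Only 3 of these were called without db/db replicate 1, and Jchain was called in 2 of the 9 fits. Ccl5, a chemokine of T and NK cells chosen after its values were seen, had 5.22, 5.58 and 5.0 in db/db and 6.30, 6.43 and 6.62 in db/m mice. Cd3d, another chain of the T cell receptor complex, was not called at -0.16, nor were the B cell genes Cd79a (-0.03) and Ms4a1 (-0.09). The list averages of db/db mice lay around 3.39, the median of all probe set means, so many of these genes are at low levels.

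Neutrophil genes were called in 0 of 10 cases, yet all had positive values with a median of 0.55. Their mean level was 2.90, 2.98 and 4.85 in db/db and 2.84, 2.93 and 2.88 in db/m kidneys, so replicate 3 of db/db alone stood out, and S100a8, a calprotectin subunit, was at 2.05, 2.16 and 6.08 in db/db against 2.06, 1.93 and 1.89 in db/m mice. Of 23 macrophage and dendritic cell genes 0 were called, 19 were negative and the median was -0.15. Of 20 interferon-stimulated genes Ifit2 (0.59) was higher although 19 of the list had negative values, and 0 were called without db/m replicate 3.

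**Figure D4:**
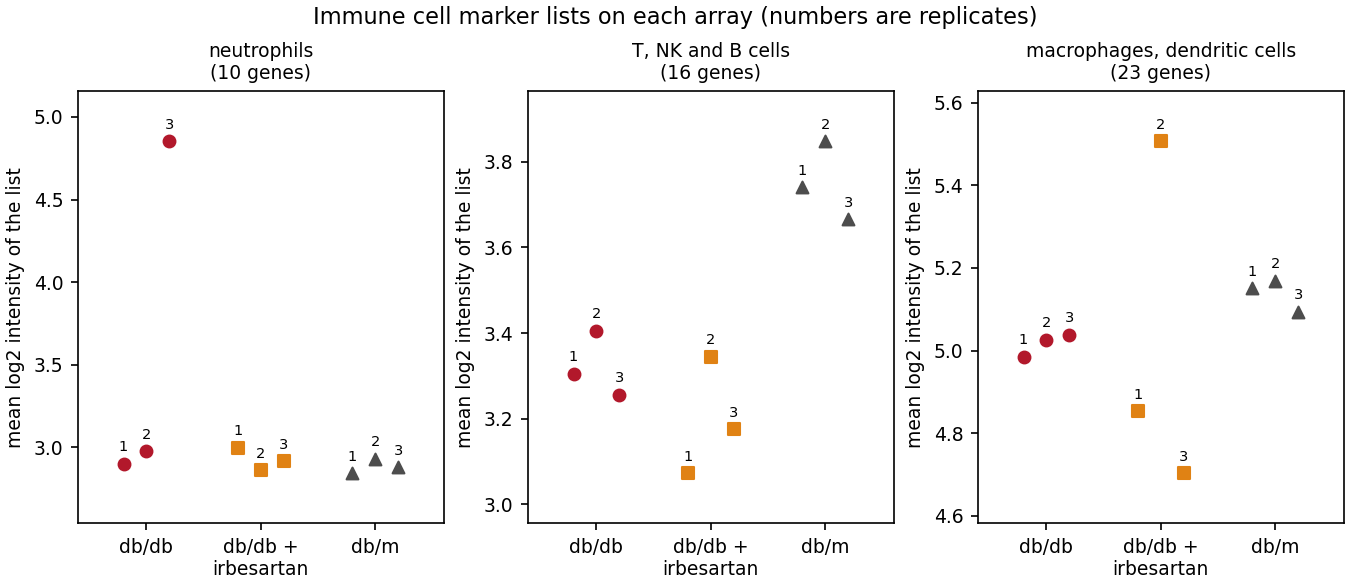
Mean log2 intensity (y axis) of 3 immune marker lists on each array, with the replicate number beside each point, for untreated db/db, irbesartan-treated db/db and db/m mice. The T, NK and B cell list is lower in all db/db mice than in all db/m mice, and the neutrophil list is at 4.85 in db/db replicate 3 and below 3.0 in the other 8 arrays.

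Clock and mitosis genes, which the study followed, were called beside these. Of 20 clock genes 4 were higher, namely Per3 (0.99 ± 0.22, SE), Wee1 (0.82), Per1 and Cry2, and 2 were lower, Npas2 and Arntl. Arntl, the positive arm of the clock, had 4.69, 4.71 and 5.48 in db/db, against 5.41, 5.59 and 6.88 in db/m mice, where the groups overlap and db/m replicate 3 is high, and it was called in 3 of the 9 fits with an array left out. Per1 was called in 4 of these fits, and Npas2 was not called without db/db replicate 1 or without db/db replicate 3. Over the fits 3 to 7 clock genes were higher, with 7 without db/m replicate 1, and 0 to 2 were lower, with 0 without db/db replicate 1. Of 29 mitosis and DNA replication genes 9 were higher, with a median of 0.30, and Ccnb2, a mitotic cyclin, had 5.54, 5.43 and 6.11 in db/db against 4.82, 4.80 and 4.94 in db/m kidneys.

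Shares called in other lists are set beside the 2.3% of all genes. They were 18.75% for glucocorticoid-responsive genes and 9.5% for NRF2 targets and antioxidants. The heat shock list had 7.1%, complement 6.25% and amino acid transporters 4.5%. In lists this short a single call makes a large share. Glucocorticoid-responsive genes had 2 higher (Sgk1 at 0.72 and Per1 at 0.63) and 1 lower (Zbtb16 at -0.76) among 16, with 0 higher without db/m replicate 3 or without db/db replicate 3, and Zbtb16 not called without db/m replicate 3, db/db replicate 1 or db/db replicate 2. Of 21 NRF2 targets and antioxidant genes Gsta3 and the oxidase Nox4 (0.51) were higher, and of 14 heat shock and cold-inducible genes Hspa1b (0.54) was higher. Nox4 and Hspa1b were not called without db/m replicate 3 or without db/db replicate 3. Of 19 endoplasmic reticulum stress genes 0 were called. Of 23 insulin, leptin and growth factor signaling genes 0 were called. Lepr, the mutated gene, was at 3.77, 3.54 and 4.28 in db/db and 3.98, 3.59 and 3.61 in db/m kidneys (0.14 ± 0.19, SE), and whether its probe set reads the mutated end of the transcript was not tested. Of the 100 measured genes nearest to Lepr on chromosome 4, which tend to be inherited with the mutation, 2% were called, Cyp2j13 and the antisense gene Kank4os (-0.55) as lower, close to the 2.3% of all genes, and 4 were lower without db/m replicate 2 or without db/db replicate 3. Of 22 amino acid transporters Slc1a4, a carrier of alanine and serine, was lower at -0.91, and of 16 complement genes the regulator Cd59a was higher by 0.56, but not called without db/m replicate 3 or without db/db replicate 3.

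**Figure D5:**
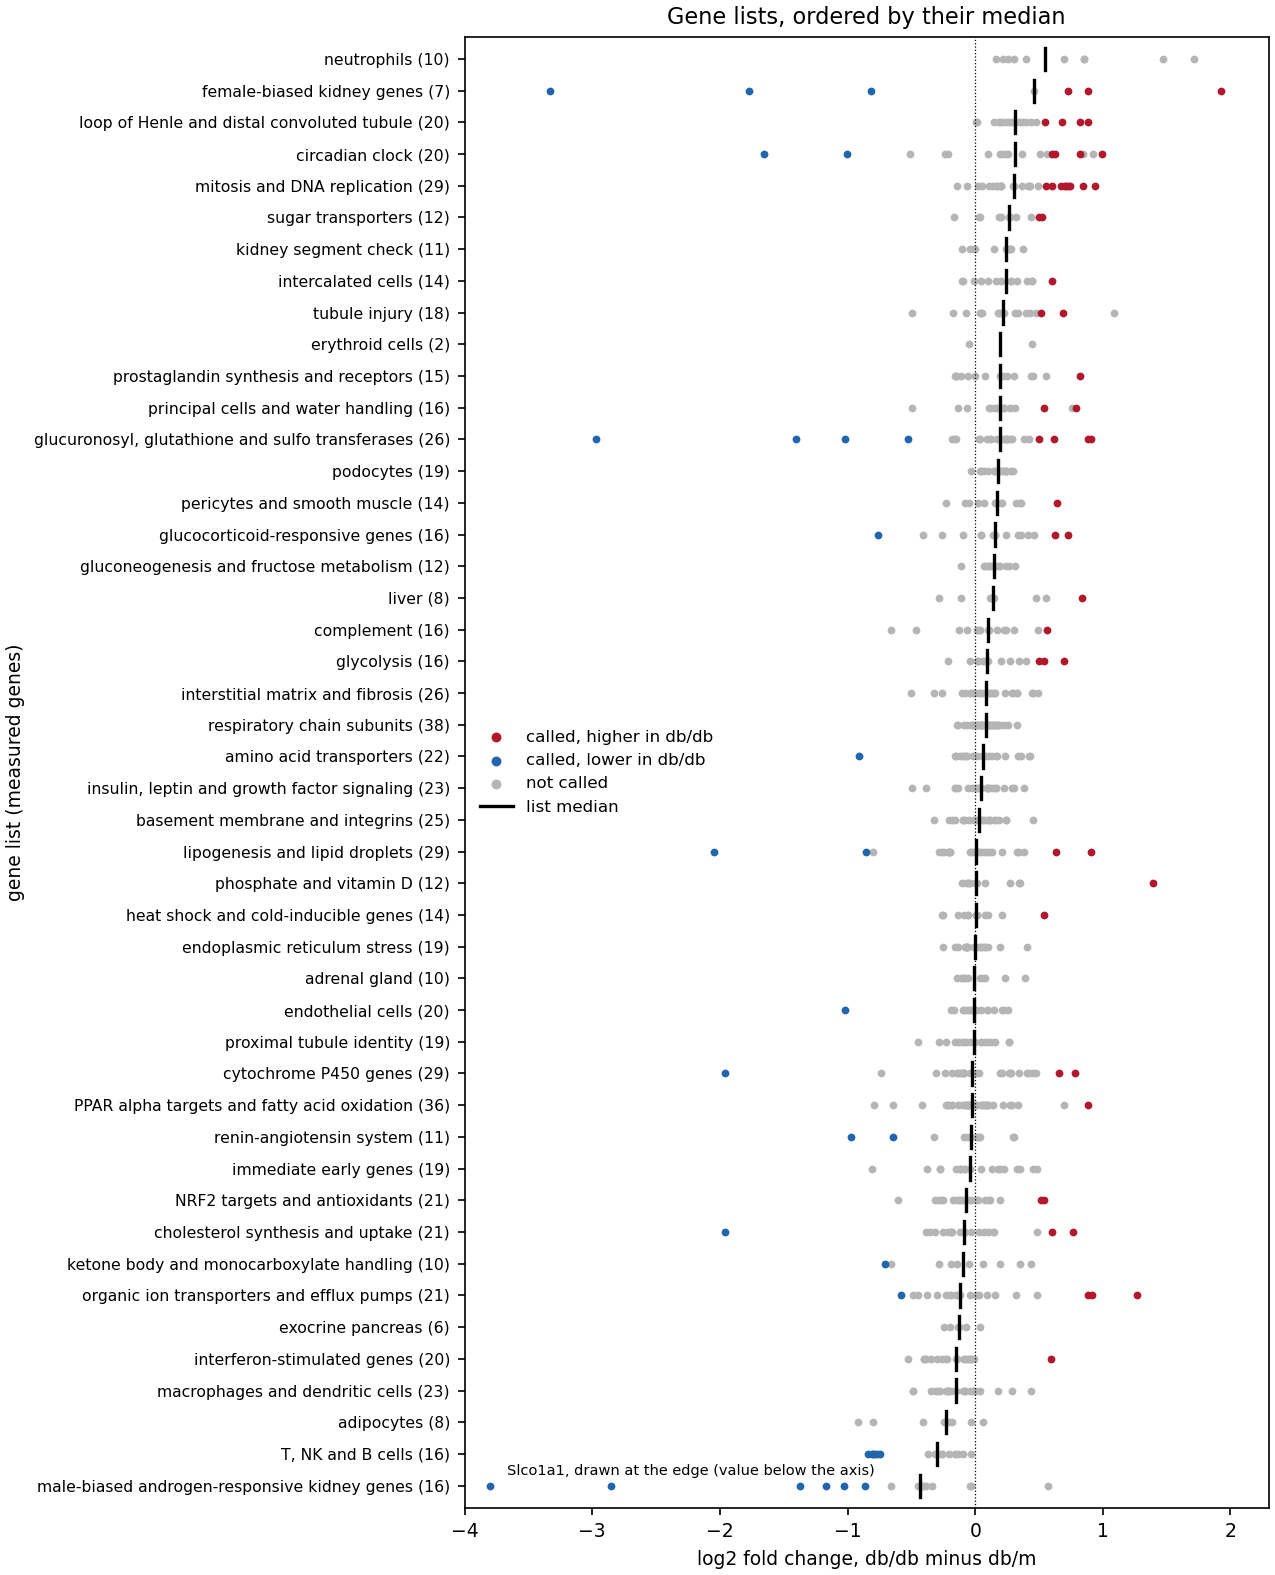
Log2 fold changes (db/db minus db/m, x axis) of the measured members of all 46 gene lists, 1 row per list ordered by its median (bar), with red for called higher, blue for called lower and grey for not called. The androgen-responsive list has the lowest median (-0.43) and the neutrophil list, with 0 called, the highest (0.55).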

How the data were processed

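Kidney RNA of 3 db/db, 3 irbesartan-treated db/db and 3 db/m mice was hybridized to Affymetrix arrays. The authors summarized the scans by RMA in Affymetrix Expression Console and deposited log2 values for 41345 probe sets, background-corrected and quantile-normalized across arrays, with no detection calls. Of these, 23521 had 1 gene symbol in the platform annotation, 1820 had several and 16004 had none here. Per symbol, the brightest probe set by its mean was kept (22180 genes, 1082 with several). The values were used as deposited and without a filter on low values. RMA compresses fold changes of low genes.

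All 9 arrays were fitted with 1 mean per group in limma 3.58.1 (R 4.3.3; 6 residual and 5.05 prior degrees of freedom). Calls used the thresholds of the methods (log2 fold change beyond 0.5, Benjamini-Hochberg adjusted p under 0.25), with the fold change read as a lower bound and limma in place of the analysis of variance. SE are from the fit. The script was tested on simulated data. The p-values measure the spread between mice within these groups.

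The comparison and the 46 lists, of which 791 of 874 genes were measured, were chosen with earlier results of these data known. Genes were named when among the 15 highest or 15 lowest called without overlap, or up to 4 called genes of a list by size (the first 2 where none was called), and others were picked after their values were seen. Alternatives changed the arrays, variance model, normalization, filter, probe set rule, test, thresholds and single arrays. Among called genes, 21 had several probe sets, 5 of them with opposite signs. Genes not named by the annotation were not analysed here.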

Additional observations from a re-analysis of the deposited data

How the results depend on the processing

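The methods' analysis of variance on 6 arrays called 5 genes, 1 higher and 4 lower, against 510, 291 and 219 with limma. Requiring an adjusted p under 0.05 gave 227 (111 higher, 116 lower), and dropping the fold change bound gave 1410 (794 higher, 616 lower). Leaving out 1 array at a time gave 459 to 703 genes (247 to 414 higher, 208 to 289 lower), lowest without db/db replicate 3 and highest without db/m replicate 2, and 69.0% to 95.9% of the calls were kept. The fit with a replicate block called 503 genes, 281 higher and 222 lower, and kept 95.1% of the calls. Same-numbered deviations of db/db and db/m mice correlated at 0.042, -0.054 and -0.077 over all genes, so no pairing by replicate number was seen at that scale. A pairing limited to few genes was not tested. A second quantile normalization called 252 higher and 238 lower (51.4% higher, against 57.1%), and centring arrays on their medians 326 and 202. A floor at each array's median left 372 genes, by construction fewer low ones, and 11 of the 510 had the opposite sign there without being called. For the 119 named genes 2052 of 2250 values under alternatives kept their side of the threshold, 192 lost the call, 4 gained one and 2, of uncalled genes, moved by more than the spread. None of the 89 called among them turned sign, while some near 0 did. No background or detection values were used, so levels under the median of all probe sets have no known limit of detection, and 3 mice per group limit the precision.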

Other observations

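Several genes for amino acid and nucleotide handling that are on no list were among the calls, and all were chosen after their values were seen. Kynu, the kynureninase of tryptophan breakdown, had 8.30, 8.30 and 8.36 in db/db, against 7.17, 7.61 and 7.47 in db/m kidneys (0.90 ± 0.12, SE, adjusted p = 0.0058 by limma). Gpt, alanine aminotransferase, was higher by 0.89 ± 0.18 (SE) and Aoc1, diamine oxidase, by 0.76 ± 0.14 (SE). Cndp2, a dipeptidase, had 9.69, 9.83 and 9.55 in db/db and 10.60, 10.55 and 10.45 in db/m kidneys, and Nt5e, the ectonucleotidase that makes adenosine, was lower at -0.76 ± 0.15 (SE). None of these 5 overlapped between the groups, as held for 486 of the 510 called genes. Each was called in all 9 fits with an array left out, as were 244 of the 510. Picking genes for their values favours both traits.

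Among plasma protein genes known from the liver, 5 lower ones were also chosen after their values were seen. Pzp, a proteinase inhibitor of the alpha-2-macroglobulin family, had 6.54, 5.08 and 5.39 in db/db, against 8.53, 8.53 and 8.47 in db/m kidneys (-2.84 ± 0.30, SE, adjusted p = 0.0019 by limma). Hrg, histidine-rich glycoprotein, was lower at -1.88, Itih2 at -1.29, Serpinf2 (antiplasmin) at -1.14 and Apoh at -0.81. The 8 genes of the liver list averaged 5.08, 4.96 and 5.27 in db/db and 4.70, 4.86 and 5.06 in db/m kidneys, Alb was at 9.02, 8.94 and 8.36 in db/db and 8.07, 8.13 and 8.68 in db/m kidneys, and Ttr was higher by 0.84.

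Sycn, a zymogen granule protein, had 7.01, 6.09 and 7.99 in db/db, against 5.48, 5.45 and 4.94 in db/m kidneys (1.74 ± 0.39, SE, adjusted p = 0.072 by limma). The 6 measured exocrine pancreas genes averaged 3.01, 2.97 and 3.01 in db/db and 3.09, 3.20 and 3.08 in db/m mice, with 0 called. The lists for adipocytes (8 genes), the adrenal gland (10) and erythroid cells (2) had 0 called.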
